A study of Mus musculus with 47 samples.

Results

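The genes described here are the motors that carry cargo along microtubules and the mitotic members of the same family. They were the rows of the hippocampal count table whose symbol names a kinesin heavy chain (Kif followed by a number), a kinesin light chain (Klc), a cytoplasmic dynein subunit (Dync1 or Dync2) or a dynactin subunit (Dctn), with at least 470 reads summed over the 47 libraries. The table held 35486 genes, of which 55 matched, and 46 of these reached the threshold. The 9 below it were Kif2b, Kif12, Kif18b, Kif14, Kif2c, Kif23, Kif19a, Kif20b and Kif28. Just outside were Kif28 with 360 reads and Kif20b with 279 reads, and just inside were Kif15 with 517 reads and Kif18a with 656 reads. All 46 members also passed the filter on low counts that preceded the tests.

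Hippocampal messenger RNA was measured in male C57BL/6J mice of 2 ages, each given vehicle (phosphate-buffered saline) or mouse platelet factor 4 (PF4, a chemokine that platelets release) by intraperitoneal injection. The groups were Young Veh (n = 13, 3.75 to 5.26 months), Young PF4 (n = 12, 4.08 to 5.03 months), Old Veh (n = 12, 17.47 to 19.97 months) and Old PF4 (n = 10, 17.4 to 20.23 months), with 1 library a mouse and no genetic alteration in any group. Total counts ranged from 2242879 to 21112908 (median 10374007), and 8 libraries had fewer than 5000000, 4 of them Old Veh. The libraries were unstranded, so reads of a gene and of an antisense or overlapping partner could not be told apart.

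Kinesins walk mostly toward the plus end of microtubules, which in axons points away from the cell body. Kinesin-1 (heavy chains Kif5a, Kif5b and Kif5c, with light chains that bind cargo) carries organelles and vesicles, kinesin-2 carries vesicles and works in cilia, and kinesin-3 (Kif1a and Kif1b) carries synaptic vesicle precursors and mitochondria. Cytoplasmic dynein 1 walks the other way, and the dynactin complex lets it hold cargo and move far. Mitotic kinesins build and move the spindle or divide the cell, and in the hippocampus dividing cells are few, lying mainly in the neurogenic zone of the dentate gyrus and among glial precursors.

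Promoter stretches are shown for the 3 members that rose with age and for the 3 mitotic kinesins chosen because they hold the CHR word named below, which Kif4 and Kif18a do not. The bases end just before the start that RefSeq lists first for the gene (GRCm38.p6, chromosome, first and last base and strand given). Capitals mark 4 motifs on either strand: the cell-cycle element called CHR (TTTGAA or TTCAAA), the CCAAT box (CCAAT or ATTGG), the GC box (GGGCGG or CCGCCC) and the cyclic AMP response element (TGACGTCA). None of these words overlaps another motif in the lines below.

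Kif1b (chr4:149307734-149307883, minus strand): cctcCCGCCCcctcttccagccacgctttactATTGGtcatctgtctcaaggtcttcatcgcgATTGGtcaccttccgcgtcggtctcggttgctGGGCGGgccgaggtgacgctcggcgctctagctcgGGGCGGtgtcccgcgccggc
Kif5c (chr2:49619136-49619285, plus strand): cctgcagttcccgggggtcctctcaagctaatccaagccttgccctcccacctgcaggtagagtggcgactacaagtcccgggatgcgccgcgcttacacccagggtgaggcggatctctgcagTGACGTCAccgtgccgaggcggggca
Dync1h1 (chr12:110601245-110601394, plus strand): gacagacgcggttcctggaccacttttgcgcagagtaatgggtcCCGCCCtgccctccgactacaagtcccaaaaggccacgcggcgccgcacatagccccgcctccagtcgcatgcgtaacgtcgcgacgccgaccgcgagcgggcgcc
Kif11 (chr19:37376232-37376381, plus strand): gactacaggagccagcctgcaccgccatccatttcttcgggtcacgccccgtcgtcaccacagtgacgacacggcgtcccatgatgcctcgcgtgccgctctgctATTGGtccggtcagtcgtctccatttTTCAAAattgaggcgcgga
Kif15 (chr9:122951051-122951080, plus strand): ggggcgccaaaTTCAAAtctgcggccatct
Kif22 (chr7:127042421-127042450, minus strand): ggggccccggtaaTTCAAAagagagaagcg

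In Kif11 and Kif15 a CHR word began 19 bases before the RefSeq start, and in Kif22 one began 17 bases before it. Kif15 and Kif22 each held 2 CHR words within 250 bases, of which 1 is shown. GENCODE places the start of Kif15 at 122951046 and that of Kif22 at 127042471, so the stretches printed for these 2 genes lie downstream of the GENCODE start. The label neuronal transport kinesins covers the kinesin-1 heavy chains and the kinesin-2 and kinesin-3 members, with Kif21a, Kif21b and Kif2a, which depolymerises microtubules. Of the 46 members 36 had an entry in the promoter table. Within 250 bases before the start a CHR word stood in 3 of the 5 mitotic kinesins found there (Kif11, Kif15 and Kif22) and in 0 of 12 neuronal transport kinesins, against 16.3% of the 27025 promoters. Over all members found there it stood in 6 of 36 (16.7%), the others being Dctn1, Kif26b and Kif27. A CCAAT box stood in 3 of the 5 (Kif11, Kif22 and Kif4) and in 3 of the 12 (Kif1b, Kif3a and Kif3b), against 34.5% of all promoters. A GC box stood in 3 of the 5 and in 8 of the 12, against 32.9%, and a cyclic AMP response element in 0 of the 5 and in 2 of the 12 (Kif5c and Kif17), against 1.62%. The G plus C share of these bases had a median of 69.4% in the neuronal and 62.0% in the mitotic kinesins and of 52.0% in all promoters. A word match describes these letters only.

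Levels spanned the members by orders of magnitude when set on CPM (counts scaled to a common library size by the TMM method) per kilobase of the longest annotated transcript. The highest median over the 47 mice was that of Klc1, the main neuronal light chain of kinesin-1, at 251 CPM per kb, and Kif5a, the neuronal heavy chain mutated in hereditary spastic paraplegia, followed at 188 CPM per kb. Kif5c stood at 99.4 CPM per kb, Kif1a at 80.7, Kif5b at 65.0 and Kif1b at 49.5. The dynactin subunits ran from Dctn4 at the low end up to Dctn2 at 88.7 CPM per kb, with the large arm subunit Dctn1 at 80.8. The heavy chain Dync1h1 was at 16.2 CPM per kb, below all 4 other dynein 1 subunits, whose medians ran from 19.9 (Dync1i2) to 75.7 (Dync1i1). Ranges over mice overlapped between many neighbours in this order, as those of Dctn2, Dctn3, Dctn1 and Kif1a did.

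Among the mitotic kinesins Kif22, Kif4, Kif11, Kif15 and Kif18a had medians of 0.546, 0.372, 0.307, 0.202 and 0.201 CPM per kb. Kif20a stood apart at 3.00 CPM per kb, but 2327 of its bases overlap Cdc23 on the opposite strand, a gene with 32951 reads against 5337 for Kif20a. How many of the reads counted for Kif20a came from Cdc23 was not tested. Similarly, 832 bases of Kif4 overlap Pdzd11 on the opposite strand, with 15404 reads against 942 for Kif4, and 1258 bases of Klc3 overlap Ercc2 on the opposite strand, with 10135 reads against 3430. Of Kif7, 2075 bases overlap 9330171B17Rik on the opposite strand, with 1943 reads against 1567 for Kif7. All values of these genes carry this limit. Among the kinesins of cilia and signalling Kif9 was highest at 2.57 and Kif24 lowest at 0.292 CPM per kb.

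**Figure D1:**
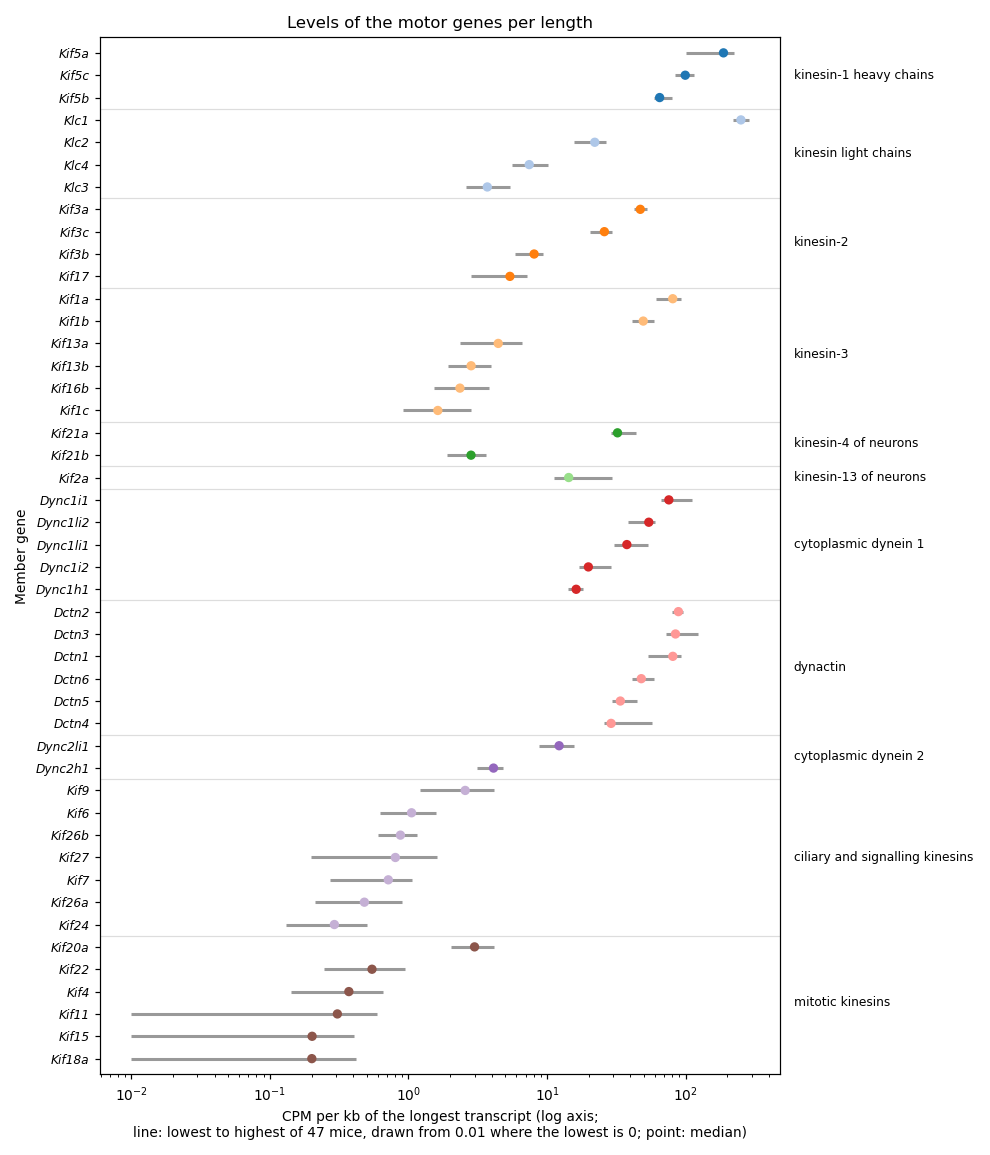
Levels of the 46 members as CPM per kb of the longest transcript on a log axis, grouped by role. Points are medians and lines run from the lowest to the highest of the 47 mice, with lines drawn from 0.01 where the lowest value is 0. Klc1 and Kif5a lie highest (251 and 188 CPM per kb), and 5 of the 6 mitotic kinesins lie below 1 CPM per kb.

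Before the comparisons, 2 libraries stood apart from the rest. The length index, the mean centred log2 CPM of genes with transcripts of at least 4594 bases minus that of genes with at most 2006 bases, was lowest in Young Veh replicate 4 (-0.35) and Old PF4 replicate 8 (-0.23). Both were sequenced to more than the median depth, at 19508854 and 12380047 counts. In both libraries 17 of the 46 members (37%) lay beyond all of the other 45 libraries on the same side, against 20.4% of the 17778 genes tested. The 9 that lay below were Kif5a, Kif1a, Dctn1, Kif3c, Klc2, Kif3b, Kif13a, Kif21b and Kif1c, and the 8 that lay above were Dync1i1, Dctn4, Dync1li1, Dync1i2, Dctn5, Dctn3, Kif2a and Dctn6. Kif5a was at 632 and 629 CPM in these libraries and between 872 and 1397 CPM in the others. Kif2a, a microtubule-depolymerising kinesin of neurons, was at 157 and 144 CPM and between 59.3 and 104 CPM in the others. The next lowest length index was that of Young PF4 replicate 4 (-0.16), which held the 872 CPM of Kif5a and had Kif2a at 95.1 CPM. The 2 libraries came from different ages and treatments, and the part of RNA quality or dissection in their values was not tested.

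**Figure D2:**
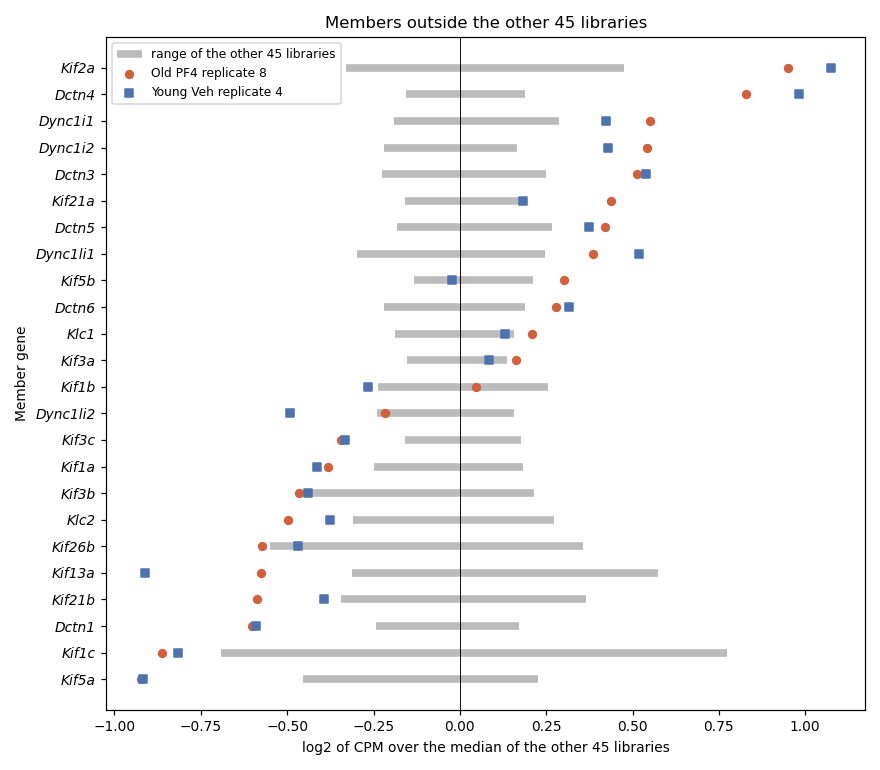
The 24 members for which Old PF4 replicate 8 (circles) or Young Veh replicate 4 (squares) lay outside the other 45 libraries. The horizontal axis is the log2 of CPM over the median of the other 45, and grey bars give the range of those 45. Kif5a lies at 632 and 629 CPM, below the other 45, and Kif2a at 157 and 144 CPM, above them.

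The first comparison asked how age changed the motors under vehicle. By the quasi-likelihood test of edgeR, adjusted after Benjamini and Hochberg over 17778 genes, 492 genes differed between Old Veh and Young Veh at an adjusted p below 0.05 (2.77%), 384 of them higher (2.16%). An unadjusted p under 0.05 was reached by 15.2% of all genes and by 7 of the 46 members. Of the members 3 passed after adjustment, all higher in Old Veh: the kinesin-3 Kif1b, the kinesin-1 heavy chain Kif5c and the dynein heavy chain Dync1h1. The other 43 did not pass. The median log2 fold change of the members was -0.01, and that of all genes tested was -0.01. In bulk tissue more RNA per cell and more cells of a type cannot be told apart, which applies to each of these values.

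Kif1b (chromosome 4, 149176319 to 149307693, minus strand) encodes a kinesin-3 that moves mitochondria and synaptic vesicle precursors along axons. It was measured at 421, 482 and 512 CPM (lowest, median and highest) in Young Veh and at 524, 573 and 604 CPM in Old Veh. The groups did not overlap, and Kif1b was the 1 member of 46 of which this was true, while 11 of the 17778 genes (0.0619%) were separated in this way. The means were 476 ± 24.3 CPM (SD, n = 13) and 568 ± 24.1 CPM (SD, n = 12). The log2 fold change was 0.25 (SE 0.03, 95% interval 0.19 to 0.32), or 19.2% higher, at an edgeR adjusted p of 5.92e-07. Without the 2 libraries that stood apart it was 0.24.

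Kif5c (chromosome 2, 49619298 to 49774778, plus strand) encodes a neuronal heavy chain of kinesin-1. It was at 589, 647 and 749 CPM in Young Veh and at 670, 734 and 790 CPM in Old Veh, so that the groups overlapped but all 12 Old Veh mice lay above the Young Veh median. The log2 fold change was 0.17 (SE 0.04, 95% interval 0.09 to 0.25) with an edgeR adjusted p of 0.0119. The 2 other heavy chains of kinesin-1 did not pass. Kif5a had a log2 fold change of -0.02 (95% interval -0.18 to 0.14), and Kif5b, the widely expressed heavy chain, 0.02 (95% interval -0.05 to 0.10). The value of Kif5a includes Young Veh replicate 4 at 632 CPM, with the next lowest Young Veh mouse at 1134 CPM.

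Dync1h1 (chromosome 12, 110601452 to 110666945, plus strand) encodes the motor subunit of cytoplasmic dynein 1. It ran from 203 over a median of 220 to 249 CPM in Young Veh and from 230 over 240 to 260 CPM in Old Veh. All 12 Old Veh mice lay above the Young Veh median and 2 above every Young Veh mouse. Its log2 fold change was 0.11 (SE 0.03, 95% interval 0.05 to 0.17), 7.94% higher, at an edgeR adjusted p of 0.0426. This call was lost in 14 of 47 fits that left out 1 library. None of the other 4 dynein 1 subunits passed, and their log2 fold changes ran from -0.08 (Dync1i2) to 0.07 (Dync1li2).

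**Figure D3:**
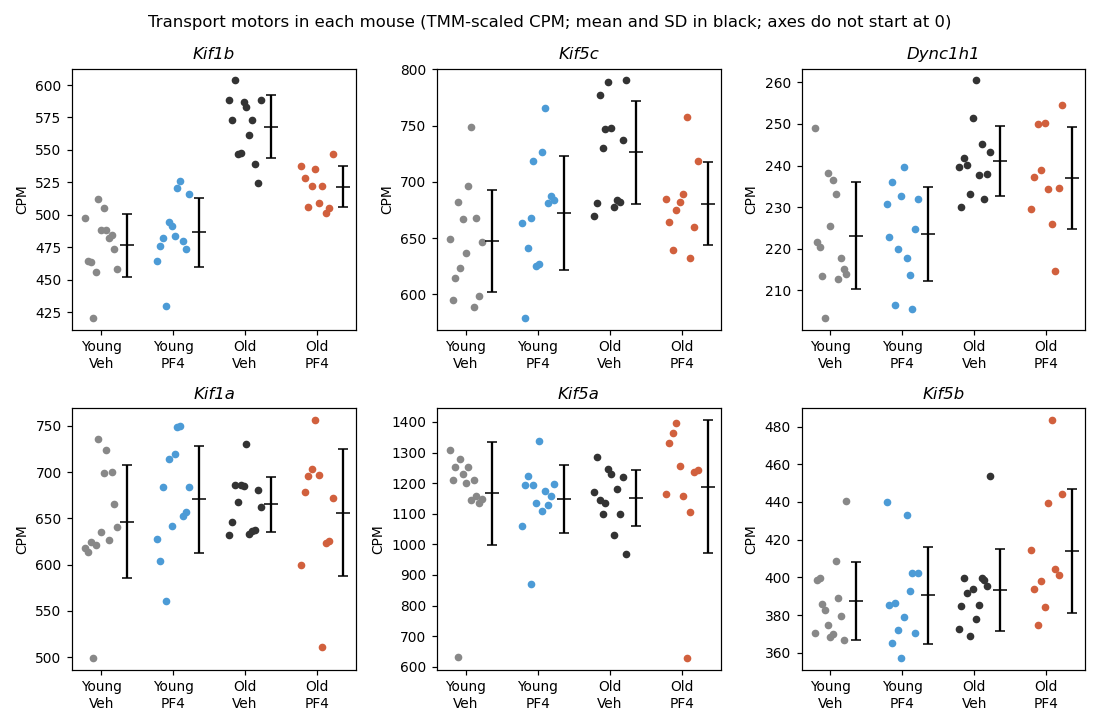
CPM of Kif1b, Kif5c, Dync1h1, Kif1a, Kif5a and Kif5b in each mouse by group, with the mean and SD in black. Axes do not start at 0. The 12 Old Veh mice lie at 524 CPM or more for Kif1b, above all 13 Young Veh mice, and the low points of Kif5a at 632 and 629 CPM are the 2 libraries that stood apart.

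None of the other neuronal kinesins passed. Kif1a, the main carrier of synaptic vesicle precursors, was at 499, 636 and 736 CPM in Young Veh and at 632, 665 and 730 CPM in Old Veh, with a log2 fold change of 0.04 (95% interval -0.06 to 0.14). Its 499 CPM was that of Young Veh replicate 4, and the next lowest Young Veh mouse was at 614 CPM. Kif13b, a kinesin-3 of 25.1 CPM, was at 17.2, 23.3 and 26.4 CPM in Young Veh and at 21.6, 26.8 and 30.7 CPM in Old Veh. Its log2 fold change of 0.22 (SE 0.07) had an edgeR adjusted p of 0.0767 and did not pass, though 10 of the 12 Old Veh mice lay above every Young Veh mouse. The 4 kinesin-2 genes lay between 0.01 (Kif3c) and 0.09 (Kif17), with Kif3a at 0.03 and Kif3b at 0.04. Part of Kif17 (8903 reads) lies in the same stretch as Sh2d5 (24724 reads) on the same strand. Kif21a and Kif21b, kinesin-4 motors of neurons, had 0.06 and 0.14. For Kif2a all 12 Old Veh mice lay above the Young Veh median. Kif2a had 0.17 (95% interval -0.05 to 0.38) and passed by edgeR when Young Veh replicate 4 alone was left out. Without both libraries that stood apart it passed too, at a log2 fold change of 0.30 and an edgeR adjusted p of 0.00108. Of the 16 members under the label neuronal transport kinesins, Kif2a among them, 14 had a fold change above 0, the exceptions being Kif16b (-0.15) and Kif5a, with a median of 0.05.

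The adaptors and tracks of the motors were counted from lists of their own. Of 21 tested dynein adaptors and regulators 2 rose, and they were Pafah1b1, which encodes the dynein regulator Lis1, and Nin, which encodes ninein, a centrosomal dynein activator. Pafah1b1 was at 129, 144 and 177 CPM in Young Veh and at 157, 175 and 209 CPM in Old Veh, with a log2 fold change of 0.28 (SE 0.04) and an edgeR adjusted p of 3.78e-05. Nin had 0.20 (SE 0.05) with an edgeR adjusted p of 0.00683. Of 28 kinesin adaptors and regulators 0 passed (1 had an unadjusted p under 0.05), and of 6 dynein light chains 0 passed (0 had an unadjusted p under 0.05). Among 21 microtubule subunits and binding proteins Map2, which binds dendritic microtubules, rose by 0.21 (SE 0.03) on the log2 scale, from a median of 713 to 807 CPM with no overlap between the groups, at an edgeR adjusted p of 4.87e-06. Tubb2a, a beta-tubulin, fell by 0.16 (SE 0.05), at an edgeR adjusted p of 0.0424.

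Of 9 neuron markers 0 passed, 7 lay above 0, and their median log2 fold change was 0.02. The 1 with an unadjusted p under 0.05 was Camk2a, a kinase of excitatory neurons, at 0.24 (95% interval 0.06 to 0.42, edgeR adjusted p of 0.148). Their summed level ran from 8286 to 9337 CPM in Young Veh and from 8436 to 10704 CPM in Old Veh, with none of the 9 at 0 reads throughout a group. Oligodendrocyte markers (6 genes) had a median of 0.09 and microglia markers (6 genes) of 0.15, with all 6 of each above 0 and 0 of either passing. An unadjusted p under 0.05 by edgeR was reached by 1 oligodendrocyte marker and 3 microglia markers. Of 6 astrocyte markers 2 passed, the glutamate transporter Slc1a2 with a log2 fold change of 0.19 and the enzyme Aldh1l1 with -0.19. Their summed level ran from 3223 to 3721 CPM in Young Veh and from 3511 to 4091 CPM in Old Veh. Of 5 markers of oligodendrocyte precursors 1 passed, Gpr17 with -0.56, while the median of the 5 was -0.01 and 2 lay above 0. Their summed level ran from 170 to 255 CPM in Young Veh and from 174 to 242 CPM in Old Veh. Of 5 tested markers of immature granule neurons 0 passed, with a median of -0.31. Whether these shifts had a part in the motor values was not tested. Choroid plexus RNA varied widely within each group, with a marker score on a log2 scale from 1.01 to 6.15 (median 1.61) in Old Veh and from 0.922 to 5.88 (median 5.13) in Young Veh. The groups overlapped, and all 10 of its markers lay below 0 with age, with a median log2 fold change of -0.92. Of these 10 markers 0 passed or had an unadjusted p under 0.05 by edgeR. With that score in the model Kif1b had a log2 fold change of 0.23 and Kif5c of 0.15, both with an edgeR adjusted p under the threshold, and Dync1h1 had 0.09 with an adjusted p of 0.144. Library numbers in the labels did not overlap between the ages (1 to 12 in Old Veh, 24 to 43 in Young Veh), and what they number was not given in the sources used here. Age and whatever varied with the number cannot be told apart. With the library number as a covariate 0 of the 46 members and 0 of all genes passed by edgeR (1188 genes had an unadjusted p under 0.05), and Kif1b had a log2 fold change of 0.32 with an adjusted p of 0.0903.

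The mitotic kinesins were then set against these neuronal ones. Under vehicle 5 of the 6 had a log2 fold change below 0, with a median of -0.24, and 0 of the 6 passed. Without Kif20a, whose reads may include those of Cdc23, 4 of 5 lay below 0 with a median of -0.36. Kif11 (Eg5), the bipolar kinesin that pushes spindle poles apart, was at 0.598, 1.82 and 2.85 CPM in Young Veh and at 0.673, 1.15 and 1.98 CPM in Old Veh. Its log2 fold change was -0.50 (95% interval -0.99 to -0.02), with an unadjusted p of 0.0393 and an edgeR adjusted p of 0.296. Kif4, a chromosome-arm kinesin, had -0.36 (95% interval -0.71 to -0.01, edgeR adjusted p of 0.310), and its medians were 2.26 and 1.73 CPM, with the part of Pdzd11 reads not tested. Kif15, a spindle kinesin that can stand in for Kif11, had -0.40 (95% interval -0.83 to 0.02), with 7 of the 12 Old Veh mice below every Young Veh mouse. The lowest Young Veh mouse was at 0.825 CPM, and Old Veh replicates 1, 3 and 8 lay just below it at 0.798, 0.808 and 0.819 CPM. Kif22, which binds chromosome arms, had -0.11, Kif20a, needed to finish division of the cell, had -0.03, and Kif18a, which damps chromosome swings at the spindle equator, had 0.23 (95% interval -0.21 to 0.68).

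Most of these genes rested on few reads. The median Old Veh library held 7.5 reads of Kif11, 7 reads of Kif15 and 13 reads of Kif4 against 92.5 reads of Kif20a. Whether the number of reads had a part in the absence of calls was not tested. Top2a, a marker of dividing cells, fell in the same comparison by 1.76 on the log2 scale (SE 0.35), at an edgeR adjusted p of 0.000450, from a median of 1.11 to 0.270 CPM. Mki67, which marks the same cells, had a log2 fold change of 0.47 and an edgeR adjusted p of 0.191. Only 5 of the 10 dividing-cell markers passed the low-count filter and were tested. Of these 5, 1 passed (Top2a) and 4 lay below 0, with a median of -0.06. The summed level of all 10 ran from 32.3 to 46.2 CPM in Young Veh and from 29.7 to 38.9 CPM in Old Veh, with none at 0 throughout a group.

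**Figure D4:**
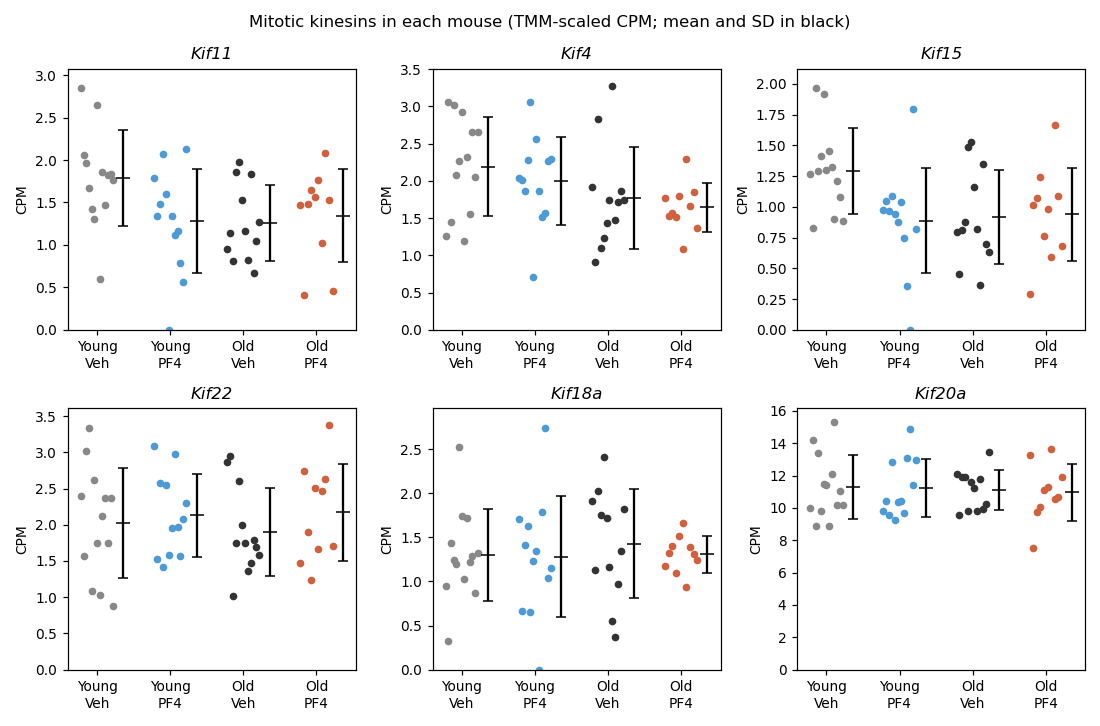
CPM of the 6 mitotic kinesins in each mouse by group, with the mean and SD in black and axes starting at 0. The groups overlap in every panel. The Old Veh median of Kif11 (1.15 CPM) lies below the Young Veh median (1.82 CPM), and 1 Young PF4 mouse each has 0 reads of Kif11, Kif15 and Kif18a.

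The comparison of ages under PF4 was between groups of other mice. All 4 groups were fitted together, so the vehicle mice also shaped the spread behind its p-values. Library numbers did not overlap between the ages here either (13 to 23 in Old PF4, 28 to 48 in Young PF4), so age and whatever varied with the number cannot be told apart, and with the number as a covariate 0 of all genes passed by edgeR (649 had an unadjusted p under 0.05). Without that covariate 59 of 17778 genes passed (0.332%), and 0 of the 46 members did, with 6 at an unadjusted p under 0.05 by edgeR (8.27% of all genes) and 0 passing by DESeq2 (0.446% of the genes it tested). Kif1b was at 430, 483 and 526 CPM in Young PF4 and at 501, 522 and 547 CPM in Old PF4. All 10 Old PF4 mice lay above the Young PF4 median and 4 above every Young PF4 mouse. Its log2 fold change was 0.10 (SE 0.03, 95% interval 0.03 to 0.17), with an unadjusted p of 0.00394 and an edgeR adjusted p of 0.255. Dync1h1 had 0.08 (95% interval 0.02 to 0.15) and Kif5c 0.02. Over the 16 neuronal kinesins the median was 0.02, with 12 above 0, and over the 6 mitotic kinesins it was -0.01, with 2 above 0. Kif4 had -0.33 (95% interval -0.71 to 0.05) and Kif11 -0.01 (95% interval -0.54 to 0.52). Cell-type markers were counted in the same comparison. The microglia markers had a median of 0.26, with 6 of 6 at an unadjusted p under 0.05 and 1 passing, and their summed level ran from 327 to 407 CPM in Young PF4 and from 364 to 487 CPM in Old PF4. The oligodendrocyte markers had a median of 0.22, with 5 of 6 at an unadjusted p under 0.05 and 0 passing. Of the 6 astrocyte markers Gfap passed (0.49), with a median of 0.05. The 10 choroid plexus markers all lay below 0, with a median of -1.05, 1 at an unadjusted p under 0.05 and 0 passing, and the 9 neuron markers had a median of 0.01 with 0 passing. The part of these markers in the motor values was not tested.

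**Figure D5:**
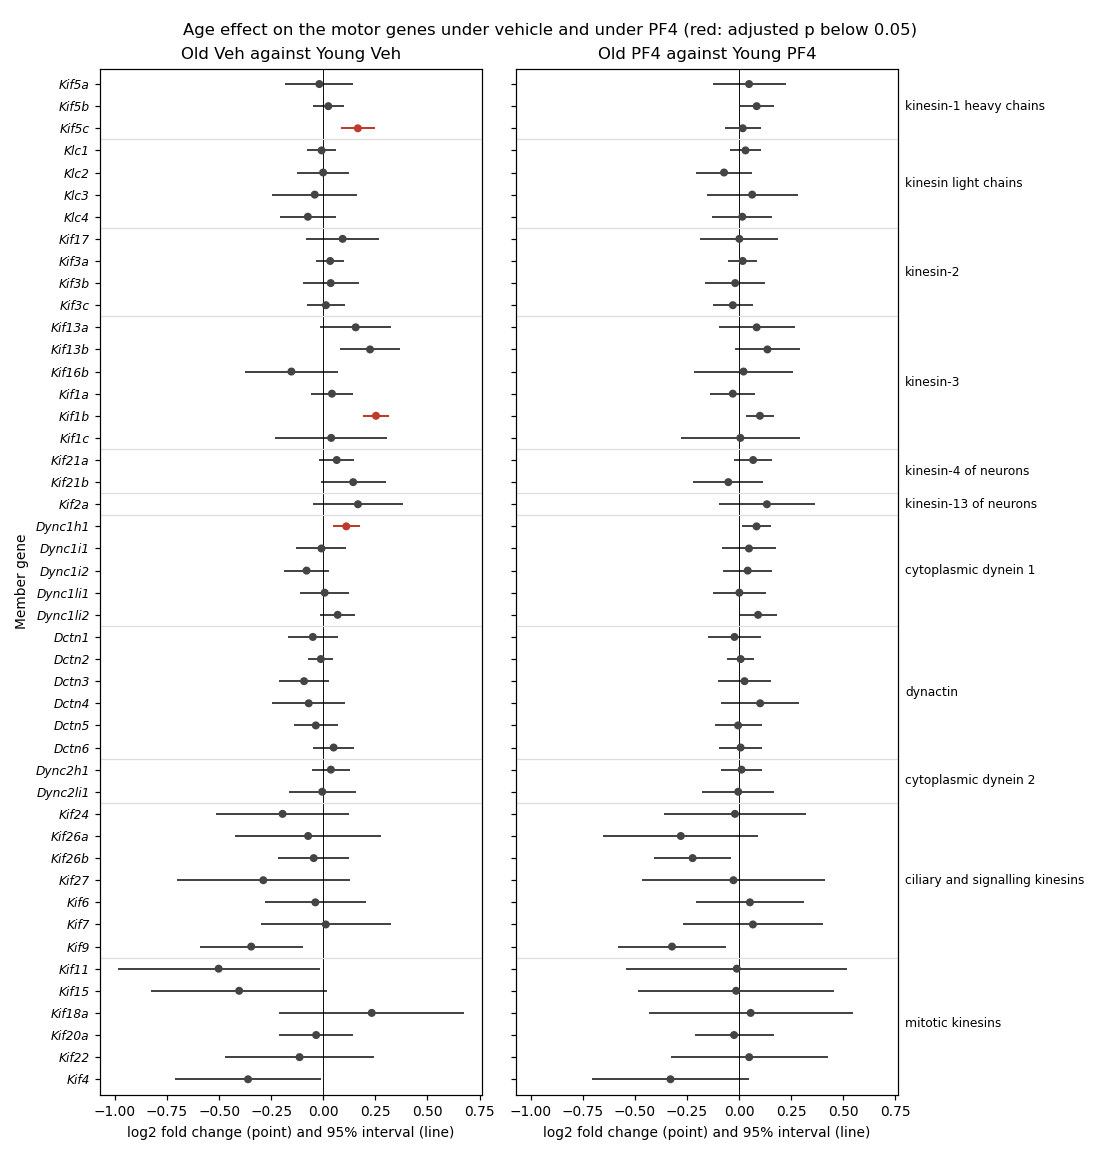
Log2 fold changes (points) with 95% intervals (lines) of the 46 members for old against young mice under vehicle (left) and under PF4 (right), grouped by role. Red marks an adjusted p below 0.05, reached by Kif5c, Kif1b and Dync1h1 on the left and by 0 members on the right. The line of Kif11 on the left runs from -0.99 to -0.02.

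PF4 against vehicle in old mice changed 6 of 17778 genes (0.0337%) and 0 of the 46 members, with 4 at an unadjusted p under 0.05 by edgeR (6.2% of all genes) and 0 passing by DESeq2 (0.167% of the genes it tested). This comparison shares the Old Veh mice with that of age under vehicle, so its values stand beside the former and are no separate support. Library numbers did not overlap here either (1 to 12 in Old Veh, 13 to 23 in Old PF4), so treatment and whatever varied with the number cannot be told apart, and with the number as a covariate 0 of all genes passed by edgeR (1133 had an unadjusted p under 0.05). The count of 6 was 0 to 20 when single libraries were left out. Kif1b, at a median of 573 CPM in Old Veh and 522 CPM in Old PF4, had a log2 fold change of -0.12 (SE 0.03, 95% interval -0.19 to -0.06), an unadjusted p of 0.000537 and an edgeR adjusted p of 0.221. All 10 Old PF4 mice lay below the Old Veh median and 6 below every Old Veh mouse. Kif5c had -0.09 (95% interval -0.18 to -0.01, edgeR adjusted p of 0.770), with medians of 734 and 679 CPM. Kif21b had -0.18 and Kif16b 0.25, each with an unadjusted p under 0.05 and an edgeR adjusted p of 0.777 and 0.798. Dync1h1 differed by -0.02 (95% interval -0.09 to 0.04). Among cell-type markers 0 passed in this comparison. The 9 neuron markers had a median of -0.01, with 1 at an unadjusted p under 0.05 (Camk2a, -0.20, edgeR adjusted p of 0.792), and their summed level ran from 8436 to 10704 CPM in Old Veh and from 8238 to 9805 CPM in Old PF4. Of the 6 astrocyte markers 2 had an unadjusted p under 0.05, Aldh1l1 at 0.19 and Slc1a2 at -0.08, and the 6 microglia markers all lay above 0 with a median of 0.09. The part of these markers in the motor values was not tested. Of the 6 mitotic kinesins 4 lay below 0, with Kif22 at 0.20 and Kif18a at -0.21 as the extremes.

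In young mice PF4 changed 0 of 17778 genes (0.0%), of which 213 (1.2%) had an unadjusted p under 0.05 by edgeR and 0 passed by DESeq2, and so 0 of the 46 members. Kif1b had a log2 fold change of 0.03 (95% interval -0.03 to 0.09) and Kif5c of 0.05 (95% interval -0.03 to 0.14). Kif15 alone among the members had an unadjusted p under 0.05 (0.0341), with a log2 fold change of -0.44 (95% interval -0.86 to -0.03) and medians of 1.29 CPM in Young Veh and 0.955 CPM in Young PF4. A count of 0 for Kif15 in Young PF4 replicate 10 allows up to 1.17 CPM, the level that 3 reads would give there. Kif11 had 0 reads in Young PF4 replicate 6, which allows up to 0.526 CPM, and Kif18a had 0 reads in Young PF4 replicate 8, which allows up to 1.11 CPM. These limits cover counting error only.

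The difference of the PF4 effect between the ages was tested directly and passed for 0 of 17778 genes (0.0%), with 707 (3.98%) at an unadjusted p under 0.05 by edgeR and 0 passing by DESeq2. Kif1b had the smallest p of the members, at a difference of -0.15 on the log2 scale (SE 0.05, 95% interval -0.24 to -0.06), an unadjusted p of 0.00154 and an edgeR adjusted p of 0.918. Kif5c followed with -0.15 (95% interval -0.27 to -0.03) and an unadjusted p of 0.0153. None of the other 44 members had an unadjusted p under 0.05.

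The motors of cilia and the light chains complete the account. Kif9, a kinesin of motile cilia, was at 5.66, 8.94 and 13.3 CPM in Young Veh, at 5.20, 6.77 and 10.0 CPM in Old Veh, at 7.22, 9.36 and 11.4 CPM in Young PF4 and at 3.84, 7.09 and 11.0 CPM in Old PF4. Its log2 fold change with age was -0.35 (SE 0.12, edgeR adjusted p of 0.122) under vehicle and -0.32 (SE 0.13, edgeR adjusted p of 0.441) under PF4. With the choroid plexus score in the model these were -0.14 and -0.15. All 8 markers of ependymal and multiciliated cells also lay below 0 with age under vehicle, with a median of -0.30, of which 0 passed and 2 had an unadjusted p under 0.05. Their summed level ran from 33.3 to 69.9 CPM in Young Veh and from 32.6 to 69.8 CPM in Old Veh, and their part in the values of Kif9 was not tested. Kif27, of the same class, had -0.29 and Kif6 -0.04 with age under vehicle. Kif7, a regulator of Hedgehog signalling, had 0.01 in that comparison, Kif24 -0.20, Kif26a -0.07 and Kif26b -0.05. Under PF4 Kif26b had -0.22 with age (95% interval -0.41 to -0.04, edgeR adjusted p of 0.460). Dync2h1, the heavy chain of the dynein that moves cargo inside cilia, had medians from 57.4 to 59.0 CPM over the 4 groups, and its log2 fold change with age was 0.04 (95% interval -0.06 to 0.13) under vehicle. Its partner Dync2li1 differed by less than 0.01 (95% interval -0.17 to 0.16). The kinesin-3 genes Kif13a and Kif1c had 0.16 (95% interval -0.01 to 0.32) and 0.04 (95% interval -0.23 to 0.31). The 4 kinesin light chains lay between -0.07 (Klc4) and 0.00 (Klc2) with age under vehicle, and the 6 dynactin subunits between -0.09 (Dctn3) and 0.05 (Dctn6), with Dctn1 at -0.05 (95% interval -0.17 to 0.07). None of these 10 passed in any of the 5 contrasts. The age value of Dctn1 includes Young Veh replicate 4 at 235 CPM, with the next lowest Young Veh mouse at 323 CPM.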

How the data were processed

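Hippocampal mRNA of 47 mice was sequenced, 1 library a mouse, from Smart-Seq2 cDNA tagmented with Nextera XT. The table deposited by the authors holds whole-number read counts for each gene, not normalized. The submitters' processing notes name Trim Galore 0.3.7, STAR 2.5.3a, GRCm38 and DESeq2, and per the paper's methods libraries of low coverage were excluded. The counting tool was not given in the sources used here. Groups came from the labels. Counts were fitted for all 4 groups with edgeR 4.0.16 in R 4.3.3 (quasi-likelihood test, TMM, filterByExpr, 17778 genes, Benjamini-Hochberg adjustment, calls at an adjusted p below 0.05). DESeq2 1.42.0 was an alternative, though the methods name it. SEs are Wald errors of the fit and intervals are at the 95% level. Depth (2242879 to 21112908 counts) limits genes of few reads. Lengths came from GENCODE vM21 and promoters from RefSeq. Steps were tested on simulated data. No library was identical to another. The values of 1 marker gene are not reported here.

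The genes named were every member called in any contrast, the neuronal kinesins and mitotic kinesins among the members, Dync1h1, Dctn1, Klc1, Kif6, Kif9 and Kif27, rows at the threshold, and called genes of the adaptor and microtubule lists. Kif13b, Kif16b, Kif24, Kif26b, Top2a, Mki67 and some others were named after their values were seen. The members and lists were chosen with earlier results of these data known. Alternatives were the low-count filter, DESeq2, its size factors, groups alone, the replicate number, 3 covariates, depth and leaving out libraries. The setting without the 2 libraries of lowest length index was chosen after seeing the data.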

Additional observations from a re-analysis of the deposited data

Results flagged for a closer look

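In Old PF4, 11 members had 1 mouse far from the other 9 by Dixon's test at the 95% level, and in each it was replicate 8, the library of low length index described above. It was the lowest of its group for Kif5a (629.1 CPM), Dctn1 (232.8 CPM), Dync1li2 (216.2 CPM) and Kif13a (20.55 CPM). It was the highest for Dync1i1 (301.1 CPM), Kif21a (280.9 CPM), Dctn4 (221.7 CPM), Kif2a (143.7 CPM), Dync1i2 (130.9 CPM), Dctn3 (117 CPM) and Dctn5 (112.3 CPM). The nearest other Old PF4 mouse was at 1104 CPM for Kif5a and at 132 CPM for Dctn4. Chance alone marks about 5% of the 46 sets of 10 values tested. Groups of more than 10 mice were not tested this way. The members called in the main fit did not include any of these 11, though Kif2a passed for age under vehicle in some alternatives. The part of RNA quality or tissue makeup in the values of replicate 8 was not tested.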

How the results depend on the processing

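Under the alternatives 0 of the 20 member values with an unadjusted p under 0.05 changed direction. The others changed sign in 43 to 63 fits a contrast, over 21 to 33 members, so counts of members above or below 0 move with the setting. These sign changes were counted without the fits that left out 1 library. With the library number in the labels as a covariate 0 members and 0 of all genes passed for age under vehicle, with Kif1b at a log2 fold change of 0.32 (edgeR adjusted p of 0.0903) and Kif5c at 0.30 (adjusted p of 0.221), and the median of the mitotic kinesins was -0.41 under vehicle and -0.25 under PF4. The cause was not tested, and library numbers and ages do not overlap. Kif1b and Kif5c passed in every other setting run and in all 47 fits without 1 library, in which 2 to 4 members passed. Dync1h1 was lost without Old Veh replicate 1, 3, 6, 7, 9 or 12 or Young Veh replicate 2, 3, 4, 5, 10, 11, 12 or 13 (highest adjusted p of 0.0931, without Old Veh replicate 7), with every gene of at least 1 read tested, with the groups compared alone, with the choroid plexus score, and without the 8 libraries under 5000000 counts. Kif13b passed with the groups compared alone and without Old Veh replicate 11 or Old PF4 replicate 8 (lowest adjusted p of 0.0341). Kif2a passed with the length index as a covariate (0.33) and without Young Veh replicate 4. Deviations of same-numbered mice of different groups had a median r of -0.01 (66 pairs, 21 over 0.1, highest 0.55). In 760 differently numbered pairs the median r was -0.01 too. A median r cannot decide whether the numbers pair some mice. With the replicate block 2 members (not Dync1h1) passed for age under vehicle and 0 in the other 4 contrasts. Over all genes the 492 calls for age under vehicle became 901 with the length index, 807 without the 2 libraries of lowest length index and 176 without the shallow libraries. The 59 for age under PF4 became 98, 89 and 41 under the same alternatives, 90 by DESeq2 and with the replicate block, 39 with at least 10 reads in every library and 21 with the groups compared alone. The 6 for PF4 in old mice became 24 by DESeq2, 10 with the replicate block, and 0 with the length index, with the groups compared alone, with the library number or without the shallow libraries. Leaving out 1 library gave 36 to 91 for age under PF4 (36 without Young PF4 replicate 5 or 11, 39 without Old PF4 replicate 2, 91 without Young PF4 replicate 1). For PF4 in old mice it gave 0 without Old Veh replicate 1, 2, 3, 5 or 7 or Old PF4 replicate 5, 6, 7 or 8, 1 to 3 without Old Veh replicate 4, 6 or 8 or Old PF4 replicate 9, 10 or 11, 10 without Old Veh replicate 12 or Old PF4 replicate 1, and 20 without Old Veh replicate 11. The library number left 0 for age under PF4 too.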
